A study of Mus musculus with 11 samples.

Results

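Occludin, the ZO scaffolds and the proteins that seal cell contacts were followed here as 9 genes, *Ocln*, *Marveld3*, *Marveld2*, *Lsr*, *F11r*, *Jam3*, *Tjp1*, *Tjp3* and *Cgn*. They were taken by symbol from the 22836 gene rows of a colon RNA sequencing table, and the list was chosen with earlier results of these data known. All 9 averaged 10 or more normalized counts per library and were among the 16781 genes tested. RNA was sequenced from pieces of colon in 11 libraries, each taken as 1 mouse, in 3 groups. The paper's methods give 1 cm of frozen tissue per extraction. Control mice (n = 3) were *Tfam* fl/fl littermates without Cre. Non-transferred mice (n = 3, replicates 1, 3 and 4) were *Tfam* fl/fl *Cd4* Cre, in which *Tfam*, encoding a factor that packages and transcribes mitochondrial DNA, is deleted by a Cre expressed under *Cd4*. Transferred mice (n = 5) had the same *Tfam* fl/fl *Cd4* Cre genotype and received competent CD4 T cells from CD45.1+ donors 7 weeks old. All 3 groups carry the floxed *Tfam* alleles, and mice of this experiment are given as 10 months old. Because *Cd4* is switched on in thymocytes that still carry both coreceptors, this Cre also deletes in CD8 T cells, and transferred mice keep their own *Tfam*-deleted T cells beside the donor cells. The comparisons ask how junction genes of the colon stand when T cells lack *Tfam*, and how they stand after CD4 T cell therapy.

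Tight junctions ring the apical end of epithelial cells and limit what passes between them. Occludin, tricellulin and MarvelD3 share the MARVEL domain, tricellulin and angulins seal the corners between adjoining cells, and junctional adhesion molecules (JAMs) are immunoglobulin-like proteins that help set up the junction. Under the membrane, ZO proteins and cingulin tie these proteins to actin. Occludin loss in the gut is known from inflammatory bowel disease, and JAM-C is best known outside the epithelium, at vessel walls and in other mesenchymal and nerve-sheath cells.

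Genes were placed on GRCm39. *Ocln* (chr13:100630334-100689535, minus strand) and *Marveld2* (chr13:100732464-100753489, minus strand) are direct neighbours 42928 bases apart, and *Tjp1* is on chr7:64945898-65177529, minus strand. Promoter windows are shown for this neighbouring pair and for *Tjp1*, the scaffold that binds occludin, since *Ocln* passed the test in comparisons described below and *Marveld2* and *Tjp1* did not. The windows run from 250 bases before to 50 after the transcript start, come from RefSeq on GRCm38.p6 (positions not converted to GRCm39), and are written 5′ to 3′ with CAGGTG, an E-box bound by Snail-family repressors, in capitals.
Ocln promoter, chr13:100552669-100552968, minus strand: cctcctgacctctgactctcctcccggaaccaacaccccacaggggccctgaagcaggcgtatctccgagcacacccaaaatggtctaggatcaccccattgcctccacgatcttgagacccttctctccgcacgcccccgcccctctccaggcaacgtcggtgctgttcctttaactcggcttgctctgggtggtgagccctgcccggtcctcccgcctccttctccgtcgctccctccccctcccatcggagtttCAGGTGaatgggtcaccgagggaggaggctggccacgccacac
Marveld2 promoter, chr13:100616922-100617221, minus strand: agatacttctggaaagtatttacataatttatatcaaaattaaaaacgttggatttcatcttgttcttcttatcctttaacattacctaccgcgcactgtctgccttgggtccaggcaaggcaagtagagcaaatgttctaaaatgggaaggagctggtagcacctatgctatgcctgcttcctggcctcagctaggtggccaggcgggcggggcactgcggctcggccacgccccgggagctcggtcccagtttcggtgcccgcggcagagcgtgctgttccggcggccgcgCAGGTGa
Tjp1 promoter, chr7:65371195-65371494, minus strand: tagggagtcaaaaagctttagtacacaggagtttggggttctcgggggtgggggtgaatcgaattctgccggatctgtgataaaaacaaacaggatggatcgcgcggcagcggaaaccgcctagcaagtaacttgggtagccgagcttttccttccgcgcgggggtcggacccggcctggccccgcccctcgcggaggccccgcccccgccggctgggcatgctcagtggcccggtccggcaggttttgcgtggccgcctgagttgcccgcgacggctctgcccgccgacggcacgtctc
Read on either strand, CAGGTG occurred once in the windows shown for *Ocln* and *Marveld2* and in 0 positions of the *Tjp1* window. *Ocln*, *Marveld2* and *Tjp3* have a second start and window in RefSeq (not shown, and for *Ocln* and *Marveld2* overlapping the first in part), which held 2 matches for *Ocln* and 1 each for *Marveld2* and *Tjp3*. The matches shown above for *Ocln* and *Marveld2* lie in the overlap and are counted again there. Of the 7 members with a window, taking the first listed for every gene (*Marveld3* and *Jam3* were not matched), 5 held CAGGTG, against 5413 of 27025 mouse promoter windows of this length (20%). The 5 were *Ocln*, *Marveld2*, *Tjp3*, *F11r* and *Lsr*, with the most matches, 4, in *Lsr*. Of these genes only *Ocln* passed the test in a comparison below. GGGCGG, a GC box that shares no position with CAGGTG, was in 6 of the 7 and in 35.9% of all. These are matches of letters and were not tested as binding sites.

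Libraries held 18214741 to 19178986 reads in genes, so that 1 read was worth 0.913 to 1.10 normalized counts, the unit used throughout: reads divided by a size factor for each library. *Tfam* itself had 977 to 1083 normalized counts in control, 1040 to 1102 in non-transferred and 865 to 1091 in transferred colon (log2 fold change 0.06, standard error 0.10, limma adjusted p = 0.678 for non-transferred against control), so in unsorted colon tissue it does not check the labels. The 14 epithelial markers fixed for the tissue were all detected, and the markers of T cells, B and plasma cells, neutrophils and macrophages were higher in non-transferred than in control colon for 6 of 6, 6 of 6, 5 of 5 and 4 of 6 genes tested, beside 22.7% of all genes tested. In bulk tissue, fewer cells of a type and less RNA per cell cannot be told apart. The labels name no animals, and p-values measure only the spread between these libraries, which may in part be technical.

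*Ocln* and *Jam3* were the members that fell in non-transferred colon, and the other 7 did not pass the test. *Ocln* encodes occludin, and *Jam3* encodes JAM-C. With 2 of 9 lower and 0 higher, the members stood beside a background in which 45.5% of all genes tested were called, 22.9% lower and 22.7% higher (limma, Benjamini-Hochberg adjusted p under 0.05). At an unadjusted p under 0.05, 1 member, *Tjp1*, was higher, though the share of all genes at that threshold was not counted, here or below. The tools edgeR and DESeq2 each called 0 members higher, beside 3770 and 3924 of all genes tested. The median log2 fold change was 0.20 for the 9 members and 0.02 for all genes, and the median size of the change without its sign was 0.26 and 0.44.

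*Ocln* had 1598, 1829 and 1402 normalized counts in control replicates 1 to 3. In non-transferred replicates 1, 3 and 4 it had 1056, 832 and 1036. In transferred replicates 1 to 5 it had 1231, 1771, 1482, 1342 and 1397. Every non-transferred library lay below every library of both other groups, and the transferred libraries overlapped those of control. The means were 1610 ± 214 (SD, n = 3), 975 ± 124 (SD, n = 3) and 1445 ± 204 (SD, n = 5). Non-transferred colon thus had 0.606 of the control level (95% interval 0.484 to 0.758), a log2 fold change of -0.72 (standard error 0.15, limma adjusted p = 0.00225). Transferred colon had 1.48 times the non-transferred level (1.21 to 1.81), a log2 fold change of 0.56 (standard error 0.13, limma adjusted p = 0.00826). The rise had an adjusted p of 0.0511, with a log2 fold change of 0.45, when non-transferred replicate 3, the lowest of the 11 libraries, was left out.

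*Marveld3* and *Marveld2*, the other MARVEL genes, did not pass the test in any of the 3 comparisons. *Marveld3*, whose product can partly stand in for occludin, ranged from 1096 to 1497 normalized counts in control, 1364 to 1783 in non-transferred and 1209 to 1674 in transferred colon. *Marveld2*, encoding tricellulin, ranged from 708 to 817, 820 to 886 and 775 to 897. All 3 non-transferred libraries lay just above the 3 control libraries for *Marveld2*. For non-transferred against control, the log2 fold changes were 0.26 (95% interval -0.08 to 0.60, limma adjusted p = 0.199) for *Marveld3* and 0.20 (-0.00 to 0.40, adjusted p = 0.0974) for *Marveld2*. The interval of *Ocln* in the same comparison, -1.05 to -0.40, lies apart from both, although the difference between genes was not tested.

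*Lsr*, encoding angulin-1, which draws tricellulin to the corners, had 1296 ± 242, 1602 ± 138 and 1605 ± 321 normalized counts (SD, n = 3, 3 and 5) in control, non-transferred and transferred colon. Transferred libraries spread from 1130 to 1981 and overlapped both other groups. The log2 fold change was 0.32 (95% interval -0.10 to 0.74, limma adjusted p = 0.194) for non-transferred and 0.30 (-0.07 to 0.67, adjusted p = 0.357) for transferred against control. *Lsr* shares 946 exonic bases with the opposite-strand gene *Gm4673* and 126 with *Fam187b*, both under 50 normalized counts in every library.

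**Figure D1:**
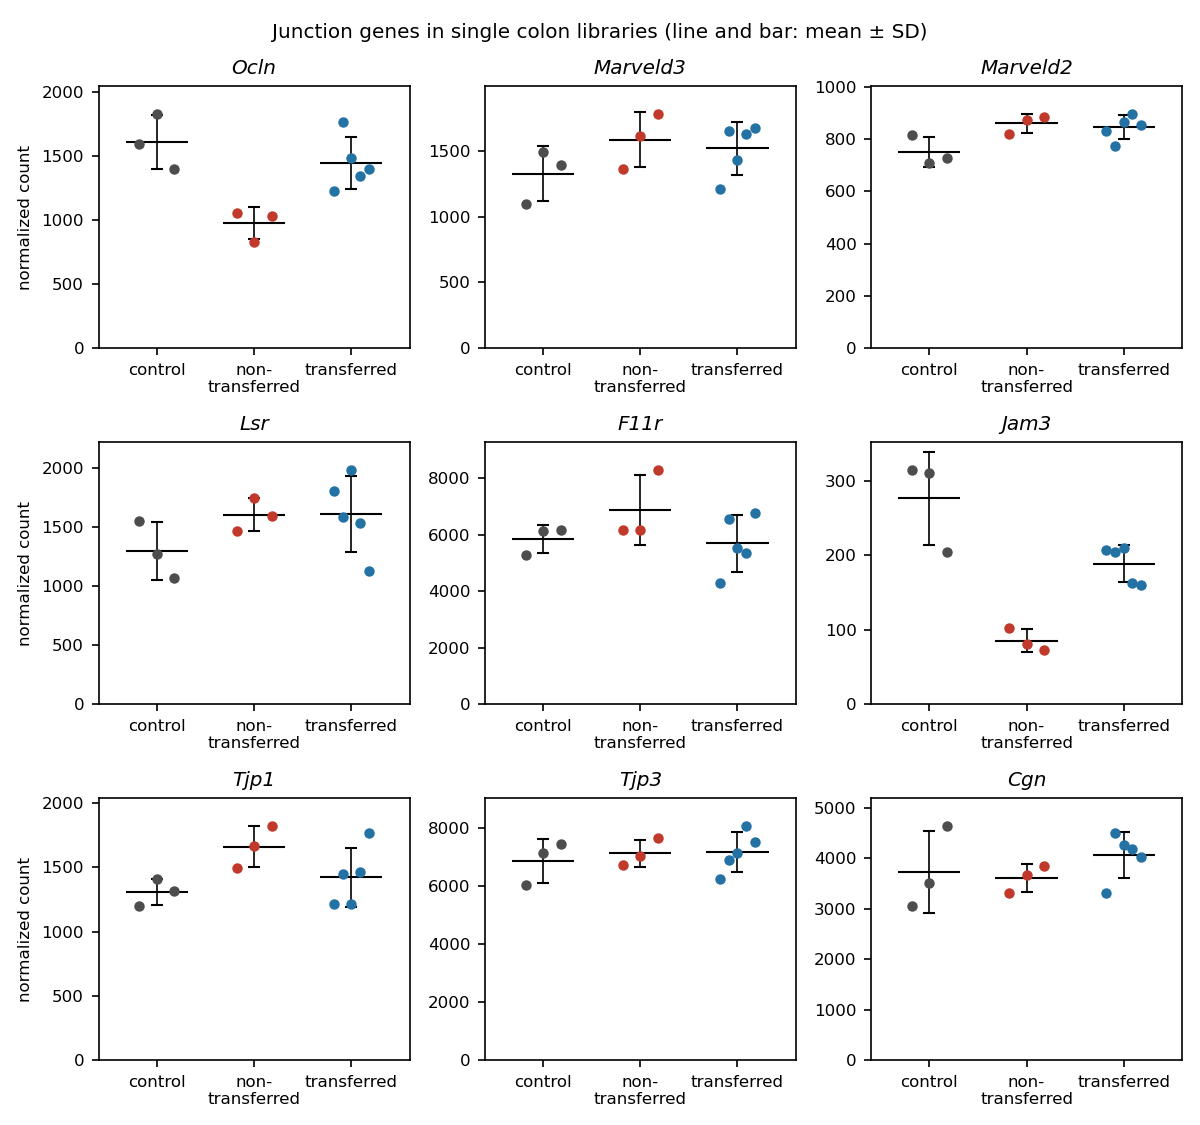
Normalized counts (vertical axis from 0) of the 9 members in each colon library of control (n = 3), non-transferred (n = 3) and transferred (n = 5) mice. Points are libraries, and lines with bars give mean ± SD. For *Ocln* the non-transferred points (832 to 1056) lie below all others, for *Jam3* they lie at 72.3 to 103, and for the other 7 genes the transferred points overlap both groups.

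*Jam3* had the largest fold change of the 9 genes between non-transferred and control colon. It had 315, 311 and 204 normalized counts in control replicates 1 to 3. It had 103, 80.4 and 72.3 in non-transferred replicates 1, 3 and 4. It had 207, 204, 209, 163 and 160 in transferred replicates 1 to 5. The non-transferred libraries were apart from both other groups, and the transferred libraries lay low within or below the control range. The means were 277 ± 62.9 (SD, n = 3), 85.2 ± 15.8 (SD, n = 3) and 189 ± 25.0 (SD, n = 5). The fall to 0.313 of control (95% interval 0.229 to 0.428) was a log2 fold change of -1.68 (standard error 0.21, limma adjusted p = 1.07e-04), and transferred mice had 2.21 times the non-transferred level (1.67 to 2.92), a log2 fold change of 1.14 (standard error 0.18, limma adjusted p = 0.0012). *Jam3* (chr9:27005652-27066915, minus strand) shares 767 exonic bases with *Ncapd3* and 1391 with *Gm48796* on the opposite strand, and no source used here gives the strand setting of the counting, which leaves its level uncertain to that extent. *Ncapd3*, a condensin subunit, went from a mean of 251 in control to 328 normalized counts in non-transferred colon (log2 fold change 0.40, limma adjusted p = 0.115), opposite in sign to *Jam3*, and *Gm48796* had means of 2.64 and 11.1.

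*F11r*, encoding JAM-A, the JAM of epithelium, leukocytes and platelets, was the second member per length and did not pass the test. Its libraries ranged from 5279 to 6167 normalized counts in control, 6162 to 8293 in non-transferred and 4287 to 6759 in transferred colon. Its highest value belonged to non-transferred replicate 4, and the other 2 libraries of that group were at 6162 and 6175, beside the highest control library. The log2 fold change was 0.22 (95% interval -0.16 to 0.60, limma adjusted p = 0.323) for non-transferred against control and -0.28 (-0.62 to 0.07, adjusted p = 0.2) for transferred against non-transferred. The log2 ratio of *Jam3* to *F11r* in each library, which does not depend on how libraries were scaled, was -4.43 ± 0.44, -6.34 ± 0.47 and -4.91 ± 0.38 (SD, n = 3, 3 and 5) in control, non-transferred and transferred colon.

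*Tjp1*, encoding ZO-1, the scaffold that binds occludin and actin, did not pass the test, and its mean was higher in non-transferred than in control colon where that of *Ocln* was lower. It had 1202, 1410 and 1314 normalized counts in control replicates 1 to 3. It had 1498, 1665 and 1821 in non-transferred replicates 1, 3 and 4, and 1212, 1448, 1214, 1462 and 1771 in transferred replicates 1 to 5. The 3 non-transferred libraries lay above the 3 control libraries, and transferred libraries spread over both groups, with replicate 5 the highest of them. The log2 fold change was 0.34 (standard error 0.14, 95% interval 0.03 to 0.65, limma adjusted p = 0.0689) for non-transferred against control and -0.24 (-0.51 to 0.04, adjusted p = 0.182) for transferred against non-transferred. Without transferred replicate 5, which enters the shared estimate of the spread, the adjusted p was 0.0294 for the first (log2 fold change 0.34) and 0.0432 for the second (log2 fold change -0.32). In a fit of only the non-transferred and control libraries the first had an adjusted p of 0.037.

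The 2 other plaque genes, *Tjp3* and *Cgn*, did not pass the test in any of the 3 comparisons. *Tjp3*, encoding ZO-3, a ZO protein of epithelia, had 6855 ± 749, 7123 ± 465 and 7158 ± 682 normalized counts (SD, n = 3, 3 and 5) in control, non-transferred and transferred colon. *Cgn*, encoding cingulin, which links ZO proteins to actomyosin, had 3727 ± 819, 3609 ± 276 and 4056 ± 456 (SD, same n). For non-transferred against control the log2 fold changes were 0.06 (95% interval -0.20 to 0.32, limma adjusted p = 0.711) for *Tjp3* and -0.03 (-0.37 to 0.31, adjusted p = 0.901) for *Cgn*. Libraries of the 3 groups overlapped for both genes.

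**Figure D2:**
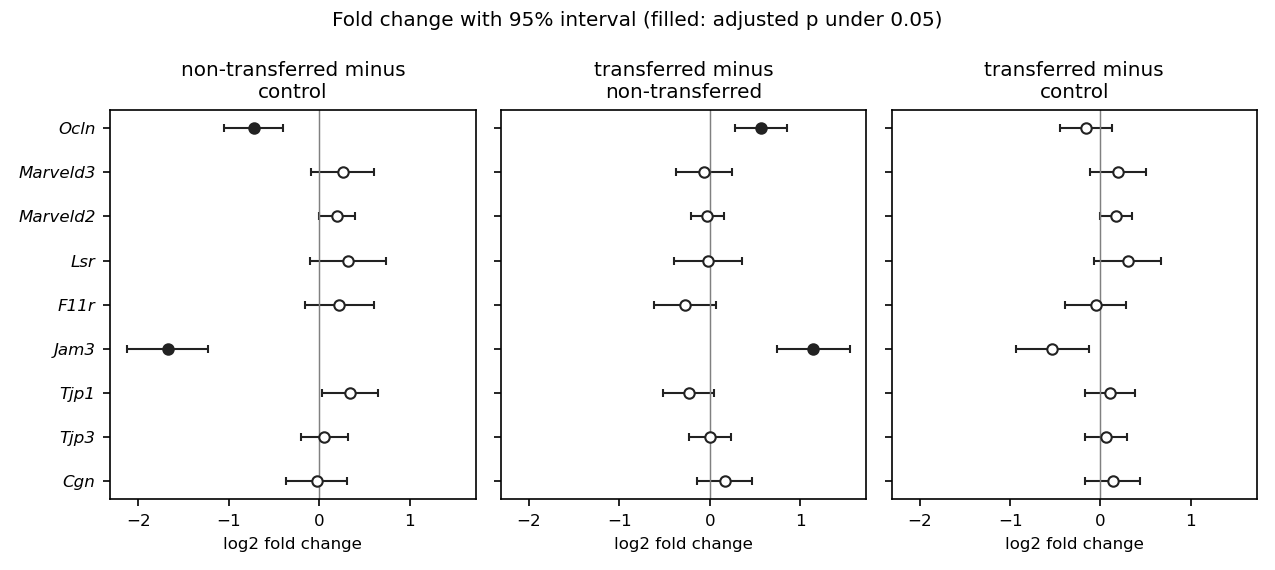
Log2 fold change (horizontal axis) with its 95% interval for the 9 members in the 3 comparisons, from limma. Filled points have an adjusted p under 0.05. *Ocln* and *Jam3* are filled on the left of 0 in non-transferred minus control (-0.72 and -1.68) and on the right in transferred minus non-transferred (0.56 and 1.14), and 0 of 9 points are filled in transferred minus control.

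The 3 ratios used here were chosen with earlier results of these data known, so their p-values are not independent support. The log2 ratio of *Ocln* to *Tjp1* within a library set the membrane protein against its scaffold. It was 0.41, 0.38 and 0.09 in control and -0.50, -1.0 and -0.81 in non-transferred colon. In transferred colon it was 0.02, 0.29, 0.29, -0.12 and -0.34. The non-transferred libraries were the 3 lowest of the 11. The difference of -1.07 between non-transferred and control had p = 0.1 in a two-sided exact permutation test, the smallest that 3 against 3 libraries allow (adjusted p = 0.15 over 9 tests of 3 ratios). The difference of 0.80 between transferred and non-transferred colon had p = 0.0357, the smallest that 5 against 3 allow in the exact permutation test, and an adjusted p of 0.15. The ratio of *Jam3* to *F11r* differed by -1.91 and 1.43 in the same comparisons, with the same exact permutation p of 0.1 and 0.0357 (adjusted p = 0.15 each). The ratio of *Tjp3* to *Tjp1* differed by less, -0.28 (p = 0.1, exact permutation test) and 0.24 (p = 0.0714), and the adjusted p of both was also 0.15. For transferred against control the 3 differences were -0.27, -0.48 and -0.04 (adjusted p = 0.201, 0.184 and 0.75, exact permutation test).

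**Figure D3:**
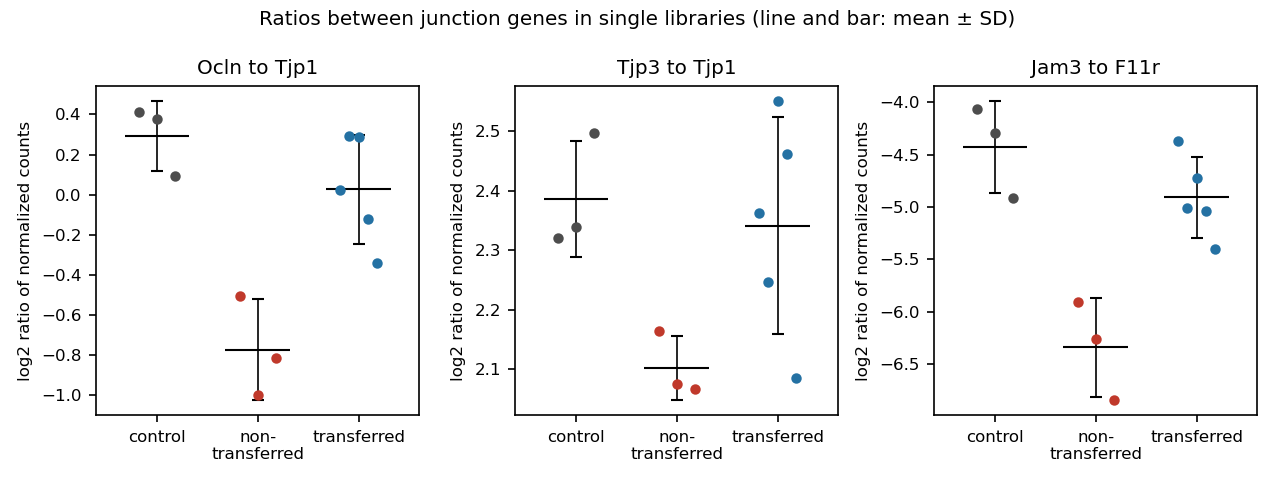
Log2 ratio of normalized counts (vertical axis, a scale of its own in each panel) between pairs of members in each library of the 3 groups. Points are libraries, and lines with bars give mean ± SD. The non-transferred points are lowest for *Ocln* to *Tjp1* (mean -0.77) and for *Jam3* to *F11r* (mean -6.34).

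In CD4 T cell recipients, *Ocln* and *Jam3* were higher than in non-transferred mice, and these were 2 of 9 members called higher with 0 lower, against 31.2% of all genes called in that comparison (17.0% higher, 14.2% lower; 18.3% and 19.9% called in all without non-transferred replicate 3 or 4). At an unadjusted p under 0.05 there were also 0 members lower, and edgeR and DESeq2 each called 0 lower, beside 2290 and 2693 of all genes tested. Both comparisons share the non-transferred libraries, so an opposite sign in them is not independent evidence. The medians of the log2 fold change were -0.02 for the members and -0.02 for all genes. Libraries of these groups did not overlap for the same 2 genes, against 34.2% of all genes, while non-transferred and control libraries did not overlap for 4 members (*Ocln*, *Jam3*, *Tjp1* and *Marveld2*), against 56.9% of all genes.

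Between transferred and control colon 0 of 9 members were called by limma, edgeR or DESeq2, beside 1.6%, 1.05% and 7.35% of all genes in that order. The limma share rested on single libraries: it was 0.0656%, 0.113%, 0.268%, 0.292%, 0.495% and 0.495% without control replicate 2, transferred replicate 1, control replicates 1 and 3 and transferred replicates 3 and 4, 1.02% without non-transferred replicate 3, and 4.12% and 4.95% without transferred replicates 2 and 5. At an unadjusted p under 0.05 there was 1 member, *Jam3*, with 0.692 of the control level (95% interval 0.523 to 0.915), a log2 fold change of -0.53 (standard error 0.18, limma adjusted p = 0.156). For *Ocln* the log2 fold change was -0.16 (95% interval -0.45 to 0.13, limma adjusted p = 0.534), which allows a level from 0.733 to 1.10 of control. For *Tjp1* it was 0.11 (-0.17 to 0.39, adjusted p = 0.674). Libraries of transferred and control mice overlapped for all 9 members, and only 11.6% of all genes tested had no overlap, so this is not particular to the members. These intervals do not show that transferred and control levels were equal.

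Set per kilobase of the canonical transcript, the 9 genes covered a wide range in control colon. *Tjp3* came first with 2251 normalized counts per kilobase, then *F11r* with 1765, *Cgn* with 743, *Marveld3* with 541, *Lsr* with 505, *Marveld2* with 245, *Ocln* with 237, *Tjp1* with 189 and *Jam3* with 54.6. Control libraries of neighbours in this order overlapped for *Cgn* and *Marveld3*, *Marveld3* and *Lsr*, and *Marveld2* and *Ocln*. In non-transferred colon *Ocln* came after *Tjp1*, with 144 and 240 normalized counts per kilobase and no overlap, and *Jam3* stayed last with 16.8. In transferred colon *Marveld2*, *Ocln* and *Tjp1* had 276, 213 and 205, and libraries of *Ocln* overlapped those of both neighbours. The transcript in use may differ from the canonical one, so levels per kilobase are approximate.

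The share of mitochondrial RNA moved in the same direction as the called members, and most called immune cell markers moved in the opposite direction. Mitochondrial transcripts took 4.63% to 6.73% of normalized counts in control, 2.55% to 3.44% in non-transferred and 3.84% to 4.82% in transferred colon, with the non-transferred libraries apart from both other groups as for *Ocln* and *Jam3*. Immune cell markers, higher in non-transferred than in control colon, were lower in transferred than in non-transferred colon for 5 of 5 neutrophil (median log2 fold change -6.13), 3 of 6 macrophage (with 1 higher), 2 of 6 T cell and 1 of 6 B and plasma cell genes, beside 14.2% of all genes called lower. The part of either in the results for *Ocln* and *Jam3* was not tested.

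Epithelial markers were higher in 3 of 14 genes and lower in 0 in non-transferred against control colon (goblet cell markers in 1 of 6 higher and 0 lower, crypt base and cycling markers in 2 of 6 higher and 1 lower), and their summed level was 296576 to 354147 normalized counts in control, 346423 to 424778 in non-transferred and 316151 to 409559 in transferred colon. With each library scaled to the epithelial markers, the log2 fold change of *Ocln* was -0.95 for non-transferred against control (limma adjusted p = 0.000417) and 0.67 for transferred against non-transferred (adjusted p = 0.00403). This scaling shifted the median of all genes by -0.23 and 0.10 in these comparisons, so the larger size is not particular to *Ocln*. Of 8 surface colonocyte markers 5 were lower and 1 higher, the median log2 fold change being -1.82, with a summed level of 446981 to 719911 in control, 193192 to 268833 in non-transferred and 325928 to 805754 in transferred colon. Of all genes tested, 22.9% were called lower and 22.7% higher. In control this sum rested mainly on *Car1*, with means of 387477, 79361 and 279843 normalized counts in the same order of groups. *Ceacam1* (90579, 103830 and 112443) and *Krt20* (34489, 40904 and 37475) did not fall. The surface colonocyte list had 5 of 8 higher and 0 lower in transferred against non-transferred colon, beside 17.0% of all genes called higher. Their part in the result for *Ocln* was not tested.

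For *Jam3*, markers of several cell types outside the epithelium were lower as well. In non-transferred against control colon, smooth muscle markers were lower in 8 of 8 genes (median log2 fold change -2.68), enteric neuron and glia markers in 7 of 8 (-2.40), fat cell markers in 5 of 5 (-3.83), endothelial markers in 3 of 8 (-0.46) and fibroblast markers in 2 of 7 (-0.34), and 0 markers of these lists were higher. Of all genes tested, 22.9% were called lower and 22.7% higher, and the endothelial and fibroblast counts lay nearest to the first share. The summed smooth muscle level was 224599 to 281982 normalized counts in control, 32554 to 47209 in non-transferred and 97361 to 157501 in transferred colon. The summed endothelial level was 2556 to 3320, 1981 to 2424 and 2224 to 3183 in the same order. The summed level of neuron and glia markers was 1262 to 2338, 319 to 654 and 820 to 1579, that of fibroblast markers 17136 to 22482, 13206 to 15670 and 14829 to 23441, and that of fat cell markers 1834 to 6735, 525 to 1099 and 2453 to 4561. The log2 fold change of *Jam3*, -1.68, was smaller in size than the medians of the fat cell, smooth muscle, and neuron and glia lists. It was larger in size than those of the endothelial and fibroblast lists. Of the listed markers 0 were at 0 in every library. In transferred against non-transferred colon these lists had 8 of 8, 7 of 8, 5 of 5, 3 of 8 and 2 of 7 genes higher and 0 lower, beside 17.0% of all genes called higher. Their part in the result for *Jam3* was not tested.

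**Figure D4:**
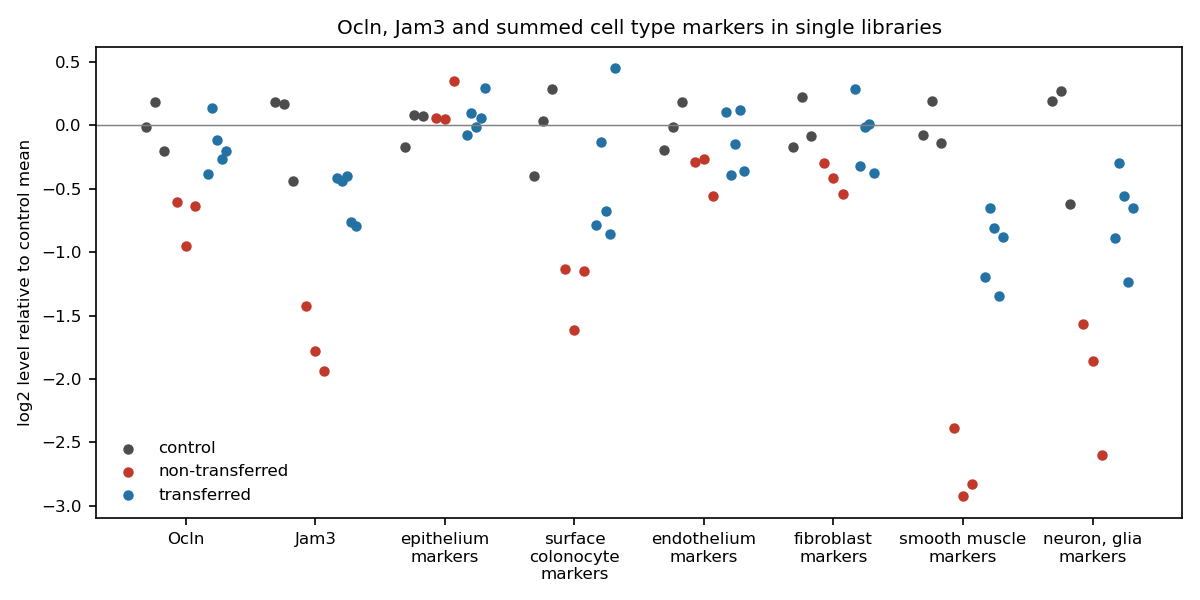
Level of *Ocln*, of *Jam3* and of 6 summed marker lists in each library, as log2 relative to the control mean (vertical axis). Points are libraries of control, non-transferred and transferred mice. Non-transferred points lie lowest for *Ocln*, *Jam3* and the surface colonocyte, smooth muscle and neuron and glia lists, and those of the epithelial list overlap control. The surface colonocyte sum rests mainly on *Car1* in control.

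The 3 genes whose centred log2 levels were closest to those of *Ocln* over the 11 libraries, among 13372 genes averaging 50 or more normalized counts, were *Inpp4a*, *Mrm1* and *Adk*, with root mean square differences of 0.09, 0.10 and 0.10 on the log2 scale. Those closest to *Jam3* were *Islr*, *Pdzrn3* and *Clip3* (0.11, 0.11 and 0.11). Of these, *Islr* is known as a marker of mesenchymal stromal cells. The likeness is a description over libraries that share groups.

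Genes whose products bind the members or act on the junction, 40 in all and with claudins left out, moved in both directions. In non-transferred against control colon 3 of 40 were higher and 11 lower, beside 45.5% of all genes called in either direction, and their median log2 fold change was -0.03 (0.02 over all genes tested). The 4 with the smallest adjusted p were all lower. *Mylk*, encoding myosin light chain kinase, which drives contraction of the actomyosin ring at the junction and is also a smooth muscle marker, fell by 2.42 on the log2 scale (limma adjusted p = 8.63e-06). *Bves*, encoding a popeye-domain protein of muscle and epithelial contacts, fell by 2.91 (adjusted p = 2.62e-05). *Mpdz*, encoding the multi-PDZ scaffold MUPP1, and *Clmp*, encoding an adhesion molecule of the JAM type, had log2 fold changes of -1.89 and -1.66 (adjusted p = 1.16e-04 and 1.56e-04).

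By role, 0 of 18 scaffold genes were higher and 3 lower (median log2 fold change 0.05), and 0 of 9 other membrane protein genes were higher and 4 lower (-0.39). In transferred against non-transferred colon 9 of 40 were higher and 4 lower, beside 31.2% of all genes called, with a median of 0.07 (-0.02 over all genes tested). The smallest adjusted p there belonged to *Mylk*, *Bves*, *Wnk4* and *Mpdz*, which rose by 1.62, 2.04, 1.02 and 1.42 on the log2 scale (limma adjusted p = 1.42e-04, 2.90e-04, 7.80e-04 and 8.06e-04). *Wnk4* encodes a kinase that acts on junction permeability and salt transport in the kidney. Against control, 1 of 40 was lower in transferred colon (1.6% of all genes called), *Mylk*, with 11365 ± 1998 (SD, n = 5) against 19813 ± 3819 normalized counts (SD, n = 3). Its log2 fold change of -0.80 had a limma adjusted p of 0.0448, and from 0.022 to 0.244 when single libraries were left out. The call was lost without any 1 of the control libraries, of non-transferred replicates 3 and 4 or of transferred replicates 1, 3 and 4. All 8 smooth muscle markers, *Mylk* included, were higher in transferred than in non-transferred colon, and 6 of 8 were lower than in control.

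**Figure D5:**
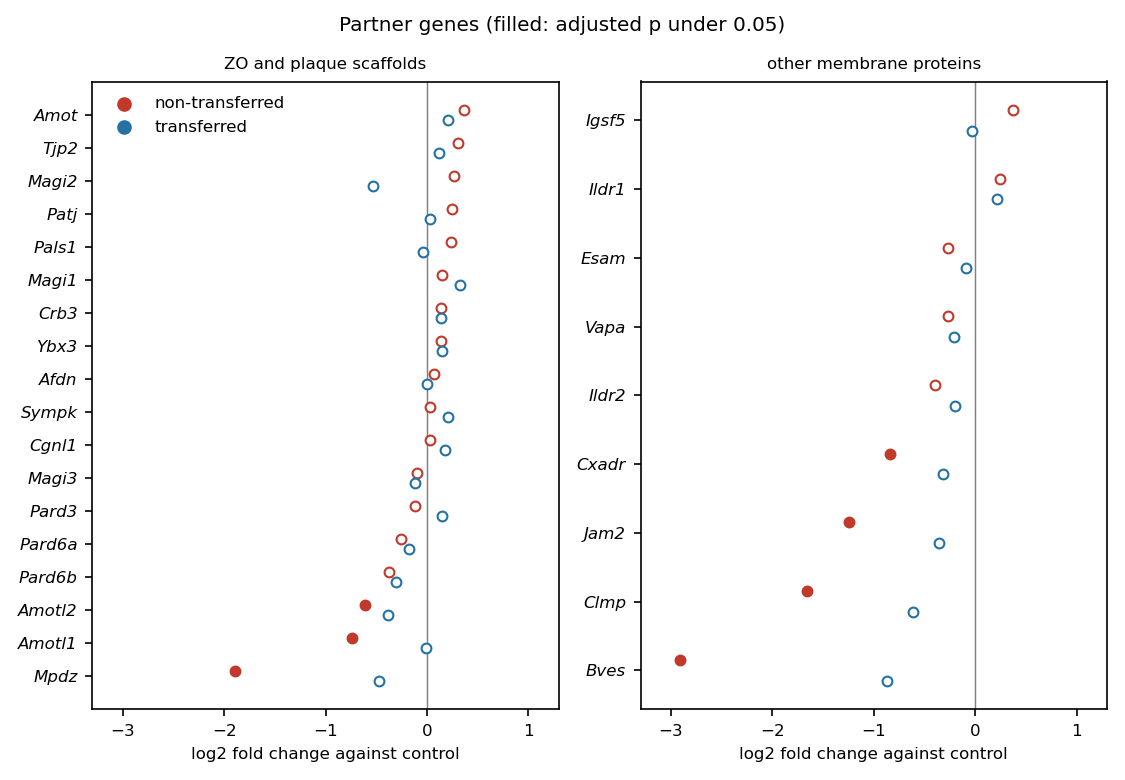
Log2 fold change against control (horizontal axis) of 18 scaffold genes (left) and 9 other membrane protein genes (right) among the partner genes, in non-transferred and transferred colon. Filled points have a limma adjusted p under 0.05. On the left 3 and on the right 4 non-transferred points are filled, all below 0 and reaching -2.91 for *Bves*, and 0 transferred points are filled.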

How the data were processed

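RNA sequencing was done on pieces of colon in 11 libraries. Per the labels the authors used HISAT2 (2.2.1), SAMtools (1.13), HTSeq (1.99.2) and DESeq2 (1.40.2) with GRCm39. The deposited table holds their normalized counts, a signal per gene scaled for each library. The strand setting of the counting is not given in the sources used here. Values were whole multiples of 1 step per library for 100% of entries (tolerance 0.05 of a step), so reads were recovered for count tools as alternatives. Of the identifiers, 99.2% matched GENCODE annotation of GRCm39, and 0 value columns belonged to no listed sample.

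Log2(normalized count + 1) values of genes averaging 10 or more were fitted with limma (3.58.1, under R 4.3.3), the 3 groups together and the variance allowed to follow the mean, with a Benjamini-Hochberg adjusted p under 0.05 over all 16781 genes as the threshold. Fold changes on this scale understate those of low genes. Ratios were tested with two-sided exact permutation tests (scipy 1.17.1). The recovered reads gave 7629, 5128 and 177 calls with edgeR (4.0.16) and 7981, 5784 and 1234 with DESeq2 (1.42.0) in the 3 comparisons, against 7641, 5240 and 268 with limma. No pair of libraries was near-identical. On simulated data (16781 genes, 50 changed at each fold size and picked at any level), limma recovered 12% of 1.5-fold, 38% of 2-fold and 88% of 4-fold changes for non-transferred against control. Far fewer genes changed there than the 45.5% called in the data, so the adjusted threshold was stricter. These shares do not measure how often changes of the members would be found.

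All 9 members are named. Of the partner genes, up to 4 called genes with the smallest adjusted p per comparison are named. A further group of partner genes by role is not reported here. The 3 genes most like each called member are named too. Members, lists and ratios were chosen with earlier results of these data known. Alternatives were other pseudocounts (0.5 and 10), other filters (none, mean of at least 50), quantile, TMM and epithelial scaling, edgeR, DESeq2, fits of the groups compared only, a constant prior variance, replicate numbers as a block, each library left out, and the paper's threshold (unadjusted p under 0.05 and log2 fold change over 0.6), with limma and, added after the data were examined, with DESeq2. Figures were drawn with matplotlib (3.10.9).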

Additional observations from a re-analysis of the deposited data

How the results depend on the processing

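Over 25 alternatives, 632 of 675 fold changes of the 9 members in 3 comparisons kept their sign and their side of the threshold, 3 lost and 7 gained a call, and 33 changed sign, none of which was called as reported. The members called numbered 2 to 3 for non-transferred against control, 1 to 3 for transferred against non-transferred and 0 for transferred against control when single libraries were left out. The paper's threshold, with limma or DESeq2, gave 1 member for transferred against non-transferred, because the log2 fold change of *Ocln* (0.56 and 0.57) lay under 0.6, while 4023 and 3976 of the 16781 genes passed. Correlations did not settle whether replicate numbers pair the libraries. Same-numbered libraries had r from -0.10 to 0.39 (8 pairs, 3 over 0.1), and libraries of unlike number had r from -0.40 to 0.28. With the number as a block, 4 members were called for non-transferred against control (*Tjp1* and *Marveld3* higher, adjusted p = 0.0185 and 0.0398) and 4 for transferred against non-transferred (*Tjp1* and *F11r* lower, adjusted p = 0.0138 and 0.0392), while 41.0% and 30.0% of all genes were called, and 2 partner genes were called for transferred against control. The block turned the sign of *Tjp1* (-0.016) and *Tjp3* (-0.0056) for transferred against control and of *Tjp3* (-0.012), *Marveld2* (0.0074) and *Lsr* (0.12) for transferred against non-transferred. Epithelial scaling shifted the median of all genes by -0.23, 0.10 and -0.13 in the 3 comparisons and split the calls of the first into 2046 higher and 5498 lower (3805 and 3836 as deposited), those of the second into 3327 and 1330 (2860 and 2380) and those of the third into 152 and 416 (192 and 76). It turned *Tjp3* (-0.17), *Marveld2* (-0.031) and *F11r* (-0.0076) for non-transferred against control, *Marveld2* (0.075), *Marveld3* (0.037) and *Lsr* (0.082) for transferred against non-transferred, and *Tjp1* (-0.021) and *Tjp3* (-0.065) for transferred against control. For transferred against non-transferred, quantile normalization turned *Marveld2* (0.032), *Marveld3* (0.00036) and *Lsr* (0.06), and edgeR (0.015) and DESeq2 (0.0073, at either threshold) turned *Lsr*. Without single libraries the log2 fold changes that turned ranged from -0.033 to 0.12 (*Tjp3*) and -0.16 to 0.14 (*Cgn*) for non-transferred against control, from -0.040 to 0.055 (*Tjp3*), -0.060 to 0.0051 (*Marveld2*), -0.17 to 0.024 (*Marveld3*) and -0.10 to 0.10 (*Lsr*) for transferred against non-transferred, and from -0.029 to 0.12 (*Tjp3*), -0.13 to 0.044 (*F11r*) and, for the log2 ratio of *Tjp3* to *Tjp1*, -0.097 to 0.020 for transferred against control. Partner genes called for transferred against control numbered 1 as reported, 0 with quantile normalization, with the 2 groups only and without a variance trend, 3 with epithelial scaling, DESeq2 and the paper's threshold in limma, 4 with that threshold in DESeq2, and 0 to 2 without single libraries. The causes were not tested. Genes called for transferred against control numbered 23 with the 2 groups only, 145 without a variance trend, 568 with epithelial scaling, 930 with the block and 1663 and 1823 with the paper's threshold in limma and DESeq2 (268 as reported). Without single libraries the share of all genes called ranged from 35.9% (non-transferred replicate 3) to 47.5% (transferred replicate 5) for non-transferred against control and from 18.3% (non-transferred replicate 3; 19.9% without replicate 4) to 31.4% for transferred against non-transferred. For non-transferred against control, the 95% intervals of the fold reached past 1.5 for *Tjp1* (1.57), *Marveld3* (1.52), *F11r* (1.52) and *Lsr* (1.67), and not for *Marveld2* (1.32), *Tjp3* (1.25) and *Cgn* (1.24).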
